A study of Mus musculus with 18 samples.

Results

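The genes described here are 10 secreted signalling proteins of inflammation, taken by name from the 47728 gene identifiers of the bulk count tables. They are the CXC chemokines Cxcl1, Cxcl2 and Cxcl10, the CC chemokines Ccl2, Ccl7, Ccl3 and Ccl4, the related cytokines Il6 and Lif, and the cytokine Mif. The identifiers of all 10 were in every bulk count table and in both single-cell gene tables, and all 10 passed the filter on low counts that left 17571 genes for testing.

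Chemokines are small secreted proteins that attract leukocytes through receptors on the target cell, and the CXC and CC families are named for the spacing of their first cysteines. Many are switched on within hours of injury or infection by NF-kappaB, a transcription factor released when its inhibitor is degraded, and several are also switched on by interferons. Interleukin 6 and leukemia inhibitory factor act through receptors that share the subunit encoded by Il6st, and both are produced in exercised or injured skeletal muscle. Macrophage migration inhibitory factor is made by most cells at rest, and one of its receptors is CD74.

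The study set muscle progenitors made from mouse pluripotent stem cells beside muscle progenitors taken from mice. The stem cell-derived cells, labelled iPax3 and iPax7, were sorted as Vcam1+Flk1- cells from embryoid bodies and grown with doxycycline (Dox) and bFGF for 3 passages. Embryonic myoblasts (Emb) came from embryos at E10.5 and fetal myoblasts (Fet) from fetuses at E14.5, both of the strain labelled My5Cre Rosa26YFP, and neonatal satellite cells (Neo) came from hindlimb muscle of Pax7-ZsGreen mice at postnatal day 3. Each of these 5 groups has 3 bulk RNA libraries. Satellite cells are the stem cells of adult muscle, and single cells from the tibialis anterior of Pax7-ZsGreen mice aged 3 months were sequenced beside single iPax3 cells. In what follows PSC stands for the 6 iPax3 and iPax7 libraries together, and tissue for the 9 Emb, Fet and Neo libraries. The labels do not say whether replicates were separate cultures or litters, how many animals were pooled, or which clone the stem cells were, so a p-value measures only the spread between these libraries.

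The bulk libraries held from 516504 counts (Fet replicate 1) to 56275318 counts (iPax3 replicate 1). Levels are given as CPM, the counts of a gene scaled to a library total of 1000000. Pax3 lay at 288 to 360 CPM in the iPax3 libraries and at 1.09 to 3.997 CPM in the iPax7 libraries. The library labelled iPax7 replicate 1 had 0.980 CPM of Pax7 against 119 and 387 CPM in the other iPax7 libraries, and 506 CPM of the pluripotency gene Nanog against 1.12 and 0.757 CPM. The 3 neonatal libraries held 0.414, 3.61 and 4.78 CPM of Pax7, the defining gene of satellite cells, against 33.9 to 61.9 CPM in the fetal libraries. A list of 12 endothelial genes summed to between 2290 and 3178 CPM in Neo and to between 312 and 651 CPM in Fet, and a list of 15 immune genes to between 284 and 834 CPM in Neo and to between 79.4 and 127 CPM in Fet. A list of 12 fibroblast genes summed to between 32500 and 92380 CPM in Neo, 33400 and 40320 CPM in Fet, 2893 and 3291 CPM in Emb and 346 and 2377 CPM in the PSC libraries. A list of 8 pericyte genes summed to between 713 and 1195 CPM in Neo and 435 and 651 CPM in Fet, and a list of 10 myogenic genes to between 249.9 and 424 CPM in Neo and 833 and 1264 CPM in Fet. In both stem cell-derived groups and in Emb the endothelial list summed to between 16.4 and 159 CPM and the immune list to between 0.329 and 49.1 CPM. The leukocyte gene Ptprc was at 47.6 to 122 CPM in Neo, 11.6 to 23.1 CPM in Fet and at most 0.169 CPM elsewhere. In bulk RNA, fewer cells of a type and less RNA per cell cannot be told apart, and the part of these other cell types in the levels below was not tested.

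Promoter sequences from RefSeq (GRCm38.p6, 250 bases before to 50 bases after each gene's start) were found for 7 of the 10 genes. Those of the genes discussed most below are shown from 5′ to 3′, with capitals for matches to the NF-kappaB consensus and, in Cxcl10 alone, to an interferon response motif (GAAA, 2 bases of any kind, GAAA) as well. Mif is shown as the gene whose levels ran opposite to the others. Cxcl1 is at chr5:90890995-90891294 and Cxcl2 at chr5:90903649-90903948, both on the plus strand. Cxcl10 is at chr5:92348840-92349139 on the minus strand, Il6 at chr5:30012864-30013163 on the plus strand and Mif at chr10:75860228-75860527 on the minus strand.
Cxcl1: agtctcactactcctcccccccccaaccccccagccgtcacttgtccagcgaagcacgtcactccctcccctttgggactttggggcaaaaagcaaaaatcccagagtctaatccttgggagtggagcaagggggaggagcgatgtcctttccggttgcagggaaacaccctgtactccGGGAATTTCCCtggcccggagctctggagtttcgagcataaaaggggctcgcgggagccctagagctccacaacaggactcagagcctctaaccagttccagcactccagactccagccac
Cxcl2: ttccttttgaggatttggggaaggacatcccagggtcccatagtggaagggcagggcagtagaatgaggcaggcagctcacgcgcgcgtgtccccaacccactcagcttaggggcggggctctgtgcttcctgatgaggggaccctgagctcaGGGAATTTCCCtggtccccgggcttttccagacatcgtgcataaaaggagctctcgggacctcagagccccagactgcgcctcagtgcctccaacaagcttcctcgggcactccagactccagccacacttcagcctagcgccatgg
Cxcl10: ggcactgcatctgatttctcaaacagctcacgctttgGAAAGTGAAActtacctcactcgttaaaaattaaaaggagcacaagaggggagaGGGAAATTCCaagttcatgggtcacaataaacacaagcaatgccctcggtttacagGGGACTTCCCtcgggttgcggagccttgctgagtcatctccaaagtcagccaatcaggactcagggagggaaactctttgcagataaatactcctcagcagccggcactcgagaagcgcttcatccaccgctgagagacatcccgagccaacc
Il6: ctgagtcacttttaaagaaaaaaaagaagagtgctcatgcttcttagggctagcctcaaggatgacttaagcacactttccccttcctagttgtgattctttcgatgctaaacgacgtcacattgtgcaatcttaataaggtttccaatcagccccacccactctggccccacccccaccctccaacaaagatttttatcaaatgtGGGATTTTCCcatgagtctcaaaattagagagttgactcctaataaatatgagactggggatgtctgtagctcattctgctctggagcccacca
Mif: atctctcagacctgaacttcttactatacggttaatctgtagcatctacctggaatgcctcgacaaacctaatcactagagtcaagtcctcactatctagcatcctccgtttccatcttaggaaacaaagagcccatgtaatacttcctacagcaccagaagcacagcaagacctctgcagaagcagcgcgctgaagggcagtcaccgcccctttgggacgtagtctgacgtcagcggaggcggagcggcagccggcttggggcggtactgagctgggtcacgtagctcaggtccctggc

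The NF-kappaB consensus was searched on both strands and was found in 4 of the 7 promoters, those of Cxcl1, Cxcl2, Cxcl10 and Il6. It was found in 4.51% of 32841 promoters of the same length. In Cxcl1 and Cxcl2 the capitals are the same letters and cover overlapping matches on the 2 strands, which begin 71 and 97 bases before the start. Cxcl10 held a match 159 and another 103 bases before its start, with the interferon response motif 213 bases before it, and Il6 held a match 44 bases before its start. The interferon response motif was found in 3.44% of all promoters. The AP-1 motif TGANTCA was found 74 bases before the start in Cxcl10, 249 in Il6 and 228 in Lif, and in 7.81% of all promoters. The promoters of Ccl3 and Mif held none of these 3 motifs, and the letters TATAAA were in none of the 7 and in 13.6% of all promoters. A match is a run of letters and not evidence of binding.

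Against the neonatal libraries the stem cell-derived cells were low in 9 of the 10 genes and high in Mif. Genes were called at an adjusted p under 0.05 (edgeR quasi-likelihood, Benjamini-Hochberg over all 17571 genes). All 10 were called in PSC against Neo, 9 lower and 1 higher, where 28.6% of all tested genes were called (14.9% lower and 13.7% higher). Ccl3 and Ccl4 had more than 1 count outside Neo only in Fet replicates 2 and 3, so they passed the filter on low counts through Neo. Their calls in comparisons with Neo therefore followed in part from the filter. The 10 genes were chosen with earlier results of these data known, so these shares are a description. Against Fet, 4 were lower in PSC (Cxcl2, Ccl3, Ccl4 and Il6) and Mif was higher, where 12% of genes were called (8.68% lower and 3.3% higher). Against Emb, 1 was lower (Cxcl2) and 1 higher (Lif), where 22.5% of genes were called (10.9% lower and 11.5% higher), a share close to that of these 10 genes. Against all 3 tissue groups averaged on the log scale, 5 were lower (Cxcl1, Cxcl2, Ccl3, Ccl4 and Il6) and 2 higher (Lif and Mif), where 28.1% of genes were called (11.7% lower and 16.4% higher). These 4 comparisons share the same 6 PSC libraries.

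Within the tissue the genes were lowest at the embryonic stage and highest at the neonatal stage, with Mif in the opposite order. In Neo against Emb, 9 were higher and Mif lower, where 20.1% of all tested genes were called (11.7% higher and 8.43% lower). In Neo against Fet, Cxcl1, Cxcl2, Il6 and Lif were higher and Mif lower, where 2.37% of genes were called (1.37% higher and 1% lower). The 3 neonatal libraries did not overlap the 3 fetal libraries in any of the 10 genes, but the share of all tested genes without overlap was not counted. In Fet against Emb, Cxcl2 and Lif were higher, where 3.65% of genes were called (2.89% higher and 0.763% lower). The median log2 fold change of the 10 genes was 9.61 in Neo against Emb, 4.99 in Neo against Fet and 4.59 in Fet against Emb, beside 0.00, -0.14 and 0.18 over all tested genes. In PSC against Neo it was -7.72 beside 0.23. Leaving out a single library changed the number of the 10 genes called from 5 to between 2 and 6 in Neo against Fet and from 2 to between 1 and 5 in Fet against Emb. The lowest counts came without Fet replicate 2 or 3 in Neo against Fet (2 genes each) and without Emb replicate 2, Fet replicate 2 or Fet replicate 3 in Fet against Emb (1 gene each). The 5 in Fet against Emb came without iPax7 replicate 1, which is in neither group and enters through the shared estimate of spread and the scaling.

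**Figure D1:**
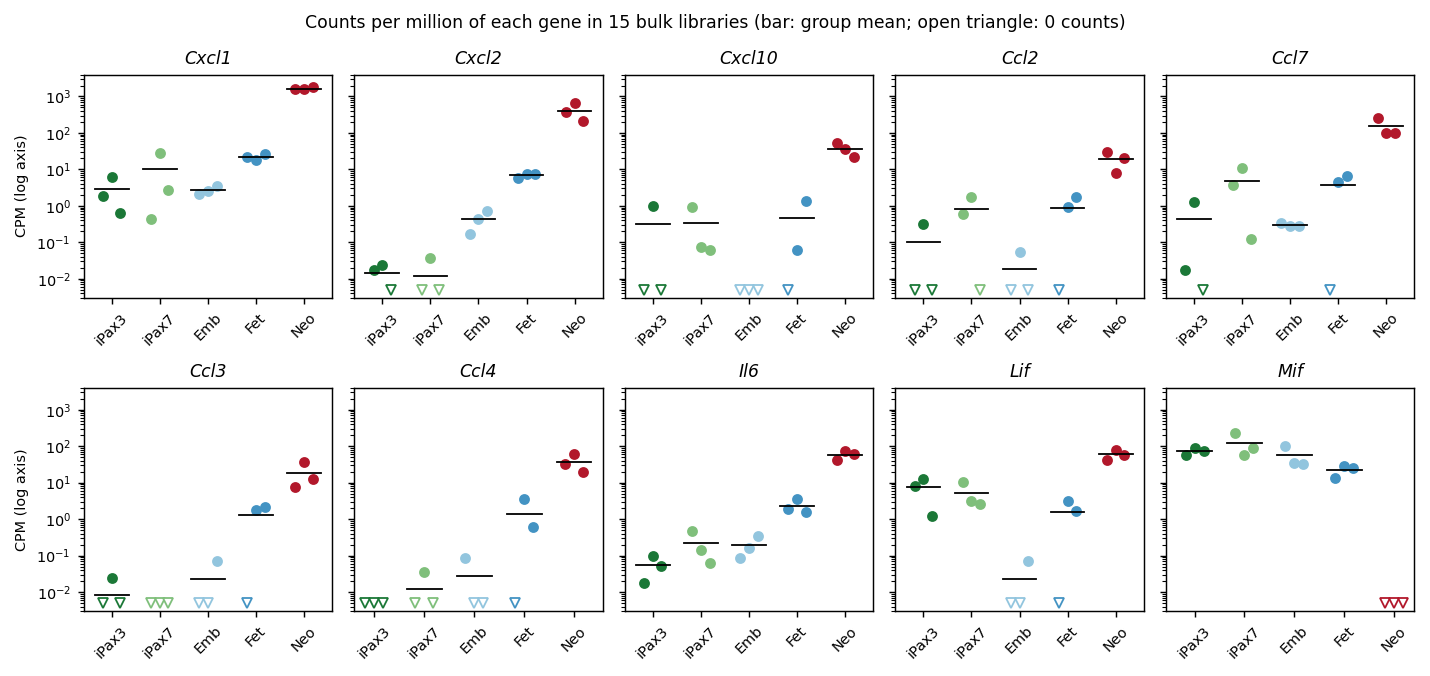
CPM (log axis) of each of the 10 genes in the 15 bulk libraries, with 1 point per library, a bar at each group's mean and open triangles for libraries with 0 counts. The neonatal points lie above all others in 9 panels, and in the Mif panel all 3 neonatal libraries are at 0.

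Cxcl1 and Cxcl2 encode chemokines that attract neutrophils through the receptor CXCR2, and the genes lie 10756 bases apart on chromosome 5 (Cxcl1 at 90891241 to 90893115 and Cxcl2 at 90903871 to 90905938, GRCm38, plus strand). Cxcl1 was at 1.83, 6.37 and 0.644 CPM in iPax3 and at 0.436, 27.7 and 2.65 CPM in iPax7. In the tissue it was at 2.12, 2.63 and 3.44 CPM in Emb, 21.3, 18.02 and 26.6 CPM in Fet and 1564, 1610 and 1790 CPM in Neo. The neonatal libraries stood close together and far above the rest, while 1 iPax7 library reached the fetal level. The log2 fold change of PSC against Neo was -8.46 ± 0.96 (SE, adjusted p = 2.4e-05) and that of Neo against Fet 6.48 ± 1.22 (adjusted p = 0.0136). That of PSC against Emb was 0.94 ± 0.90 (adjusted p = 0.485), PSC and Emb overlapped, and that of Fet against Emb, which did not overlap, was 2.92 ± 1.07 (adjusted p = 0.123). The call in Neo against Fet was lost without Fet replicate 2 (log2 6.35, adjusted p = 0.0892), without Fet replicate 3 (log2 6.68, adjusted p = 0.0635) and without the filter on low counts (log2 6.49, adjusted p = 0.0611).

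Cxcl2 was close to absent from the stem cell-derived cells. It had 1, 1 and 0 counts in the iPax3 libraries and 0, 1 and 0 counts in the iPax7 libraries. In the tissue it was at 0.169, 0.438 and 0.703 CPM in Emb, 5.81, 7.50 and 7.64 CPM in Fet and 373, 647 and 208 CPM in Neo. The 4 levels followed one another without overlap, from PSC through Emb and Fet to Neo. Each step passed the test: the log2 fold change of Fet against Emb was 3.92 ± 0.57 (adjusted p = 0.000937) and that of Neo against Fet 6.07 ± 0.58 (adjusted p = 3.3e-05). The pooled counts of PSC were 0.0320 times those of Emb for the same depth (counting interval 0.00609 to 0.108, adjusted p of the fit 0.000202), and 3.43e-05 times those of Neo (7.08e-06 to 0.000100, adjusted p of the fit 1.31e-10). Of its 50-base windows, 5.4% are shared with Cxcl3.

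Cxcl10 encodes an interferon-induced chemokine that attracts T cells through CXCR3. It was at 0, 0.968 and 0 CPM in iPax3 and at 0.907, 0.0720 and 0.0631 CPM in iPax7. It had 0 counts in all 3 Emb libraries, was at 0, 0.0625 and 1.33 CPM in Fet, and at 52.4, 36.8 and 21.7 CPM in Neo. Neonatal levels stood alone, and the other groups overlapped near 0. The log2 fold change of PSC against Neo was -6.97 ± 1.59 (adjusted p = 0.00508), and Neo was at least 656.5-fold above the floor that 3 counts over the Emb libraries give (adjusted p = 0.00916). The difference between Neo and Fet missed the threshold (log2 6.20 ± 2.16, adjusted p = 0.138). Fet replicates 1, 2 and 3 held 0, 2 and 18 counts of the gene, and replicate 1 had the lowest depth. Cxcl10 overlaps Art3 on the opposite strand, Art3 was at 17.97 to 32.9 CPM in Neo, and the strand setting of the counting is not given in the sources used here, so reads in the shared exons cannot be assigned.

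Ccl2 and Ccl7 encode chemokines that attract monocytes through CCR2, and lie 8259 bases apart on chromosome 11. Ccl2 was at 0, 0.315 and 0 CPM in iPax3, at 0.581, 1.801 and 0 CPM in iPax7, and had 1 count over the 3 Emb libraries. It was at 0, 0.937 and 1.71 CPM in Fet and at 30.6, 8.09 and 20.8 CPM in Neo. Ccl7 was at 0.0178, 1.26 and 0 CPM in iPax3, 3.67, 10.7 and 0.126 CPM in iPax7, 0.339, 0.274 and 0.281 CPM in Emb, 0, 4.37 and 6.60 CPM in Fet and 258, 101 and 101 CPM in Neo. Both genes were highest in the 3 neonatal libraries, and within PSC both were highest in iPax7 replicate 2, followed by iPax7 replicate 1 and iPax3 replicate 2. Fet replicates 2 and 3 lay above iPax3 replicate 2 and iPax7 replicate 1 in both genes, and the PSC levels overlapped both Emb and Fet. The log2 fold change of PSC against Neo was -6.30 ± 1.51 for Ccl2 (adjusted p = 0.00571) and -6.98 ± 1.20 for Ccl7 (adjusted p = 0.000646). Neither passed in PSC against Fet (adjusted p = 0.486 and 0.425), in PSC against Emb (0.223 and 0.261) or in Neo against Fet (0.209 and 0.0805).

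Ccl3 and Ccl4 encode the macrophage inflammatory proteins, chemokines that attract monocytes and lymphocytes, and their genes face opposite strands 13229 bases apart on chromosome 11. Ccl3 had 1 count over the 6 PSC libraries and 1 over the 3 Emb libraries, lay at 0, 1.78 and 2.15 CPM in Fet and at 7.80, 36.7 and 12.4 CPM in Neo. Ccl4 likewise had 1 count over PSC and 1 over Emb, lay at 0, 3.50 and 0.593 CPM in Fet and at 31.6, 61.1 and 20.2 CPM in Neo. Both were thus near 0 in PSC and Emb alike, intermediate in the 2 deeper fetal libraries and high in Neo, with Neo replicate 2 the highest. That library also had the highest Ptprc, 122 CPM against 47.6 and 52.0 CPM, and the lowest Csf1r, a macrophage gene, at 7.37 CPM against 41.7 and 12.7 CPM. The pooled counts of PSC were 0.00258 times those of Fet for Ccl3 (counting interval 6.45e-05 to 0.0148, adjusted p of the fit 0.00264) and 0.00185 times for Ccl4 (4.64e-05 to 0.0105, adjusted p of the fit 0.00112). Against Neo the ratios were 0.000307 (7.75e-06 to 0.00172, adjusted p of the fit 1e-04) and 0.000128 (3.24e-06 to 0.000716, adjusted p of the fit 2.23e-05). No fold is given against Emb, where both sides held 1 count. The lower level in PSC against all tissue had an adjusted p of 0.00248 for Ccl3 and 0.0019 for Ccl4. With the only Emb library holding a count left out (Emb replicate 3 for Ccl3, log2 -6.04, and Emb replicate 1 for Ccl4, log2 -6.17), Emb was at 0 and the test across the 3 averaged groups returned an adjusted p of 1 for each.

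Il6 encodes interleukin 6, a cytokine that satellite cells and macrophages release in injured muscle. It was at 0.0178, 0.0968 and 0.0516 CPM in iPax3, 0.472, 0.144 and 0.0631 CPM in iPax7 and 0.0847, 0.164 and 0.351 CPM in Emb. It rose to 1.94, 3.47 and 1.56 CPM in Fet and 40.9, 75.4 and 60.4 CPM in Neo, where the rise over Fet passed the test and that over Emb in Fet did not. PSC and Emb overlapped and differed by a log2 fold change of -0.84 ± 0.82 (adjusted p = 0.494). PSC lay below both later stages without overlap, with a log2 fold change of -4.29 ± 0.79 against Fet (adjusted p = 0.00185) and -9.13 ± 0.90 against Neo (adjusted p = 1.99e-06). The difference between Fet and Emb was 3.45 ± 1.02 (adjusted p = 0.0652) and that between Neo and Fet 4.85 ± 1.04 (adjusted p = 0.0201). The latter call was lost without any one fetal library (log2 4.57 to 5.39, adjusted p = 0.0699, 0.0954 and 0.124 without Fet replicates 1, 2 and 3) and without Neo replicate 2 (log2 4.63, adjusted p = 0.0787).

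Lif, the leukemia inhibitory factor that keeps mouse embryonic stem cells undifferentiated in culture and stimulates myoblast proliferation, was the 1 gene of the 9 higher in Neo than in Emb for which a higher level in PSC than in Emb passed the test. It was at 8.01, 12.9 and 1.24 CPM in iPax3 and at 10.52, 3.06 and 2.52 CPM in iPax7. It had 1 count over the 3 Emb libraries, lay at 0, 3.09 and 1.71 CPM in Fet and at 40.7, 78.3 and 59.0 CPM in Neo. All 6 PSC libraries were above all 3 Emb libraries and below all 3 Neo libraries, and they overlapped Fet. The pooled counts of PSC were 309 times those of Emb (counting interval 55.4 to 12220, adjusted p of the fit 0.00114). The log2 fold change was 1.70 ± 0.94 against Fet (adjusted p = 0.29) and -3.43 ± 0.81 against Neo (adjusted p = 0.00532). Against all tissue the fit gave 2.01 ± 0.69 (adjusted p = 0.0387), although the mean level was 6.39 CPM in PSC and 20.3 CPM in tissue, since an average of logarithms gives the Emb group with its 1 count the same weight as Neo. That call was lost without any of 10 of the 15 libraries (iPax3 replicates 1 and 2, iPax7 replicate 1, Emb replicates 1 and 2, Fet replicates 1 and 3 and each Neo replicate), where the log2 value ran from 1.49 to 2.07 and the adjusted p from 0.0514 to 0.118.

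Among the tissue stages, Lif was higher in Fet than in Emb (pooled ratio 117, counting interval 20.7 to 4676, adjusted p of the fit 0.0245) and higher in Neo than in Fet (log2 5.13 ± 1.16, adjusted p = 0.0282). The fetal libraries overlapped Emb through Fet replicate 1, which had 0 counts at the lowest depth. The first call was lost without Emb replicate 2 (adjusted p = 0.0788), Fet replicate 2 (0.0932) or Fet replicate 3 (0.0562). The second was lost without any one of the 3 Fet or the 3 Neo libraries, where the log2 value ran from 4.83 to 5.79 and the adjusted p from 0.0577 to 0.142.

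Mif was the 1 gene of the 10 that was higher in the stem cell-derived cells than in the later tissue stages. It was at 58.7, 90.4 and 72.3 CPM in iPax3 and at 224, 58.1 and 88.8 CPM in iPax7. In the tissue it was at 104, 35.6 and 32.5 CPM in Emb, 13.6, 28.8 and 24.8 CPM in Fet and at 0 counts in all 3 Neo libraries. PSC and Emb overlapped, PSC and Fet did not, and iPax7 replicate 1 was the highest library. The log2 fold change of PSC was 0.76 ± 0.50 against Emb (adjusted p = 0.29) and 2.09 ± 0.54 against Fet (adjusted p = 0.0212). The call against Fet was lost without any one fetal library (log2 1.86, 2.33 and 2.12 and adjusted p = 0.0972, 0.0573 and 0.0864 without Fet replicates 1, 2 and 3), and held without iPax7 replicate 1. PSC was at least 838-fold, Emb at least 483-fold and Fet at least 251-fold above the floor that 3 counts over the Neo libraries give (adjusted p = 1.33e-06, 9.83e-06 and 0.000215).

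The absence of Mif counts in Neo stood apart in the table. Mif was the only gene at or above 10 CPM in all 12 other libraries and at 0 in all 3 neonatal ones. Mif lies at 75859353 to 75860240 on chromosome 10 (minus strand, GRCm38), and 40.5% of the 50-base windows of its transcript also occur in other annotated genes, among them the pseudogene Mif-ps3 and the predicted genes Gm5228 and Gm16379. How reads with several matches were counted is not given in the sources used here, and its part in the zero counts was not tested. Gapdh, another gene with many processed copies, was at 5.91, 20.4 and 5.06 CPM in Neo and at 13.8 to 83.6 CPM in the other 12 libraries. In the adult single cells described below Mif was detected at 778 UMI CPM.

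**Figure D2:**
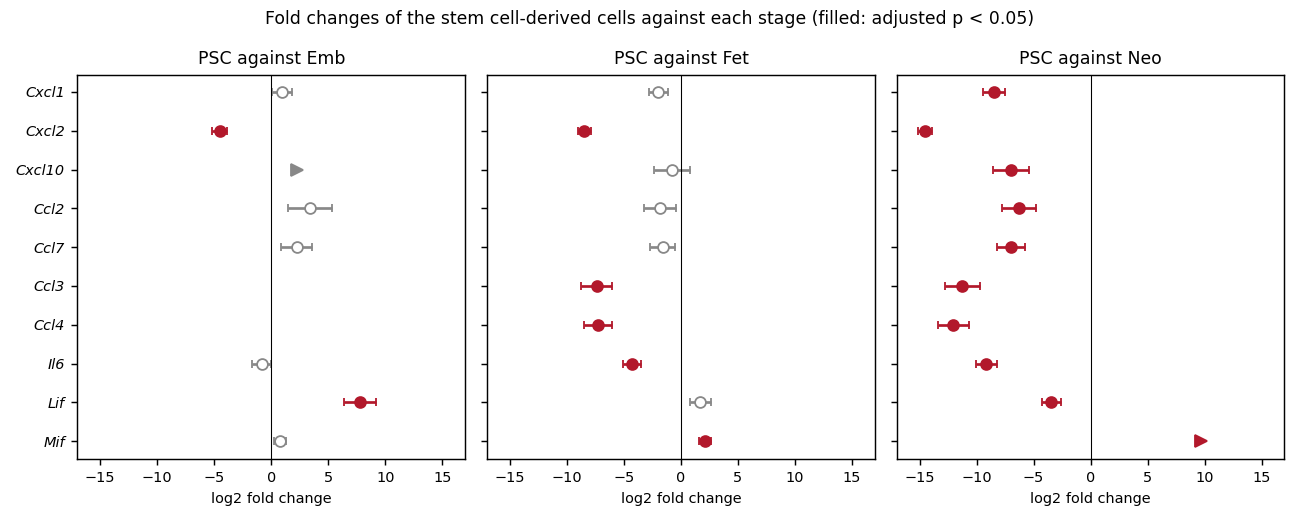
Log2 fold changes (bars, ± 1 SE of the edgeR fit) of the 10 genes in the stem cell-derived cells against Emb, Fet and Neo, filled where the adjusted p was under 0.05, with triangles for lower bounds where a group had 0 counts. In the Neo panel 9 filled points lie left of 0 and Mif lies right of it, while in the Emb panel only Cxcl2 and Lif are filled.

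The iPax3 and iPax7 cells were not told apart by these genes. None of the 10 was called by edgeR in iPax7 against iPax3, where 0.074% of tested genes were called (0.0569% higher and 0.0171% lower), and DESeq2 called none either. The smallest unadjusted p was that of Ccl7 (0.0264, adjusted p = 0.706), at 4.84 ± 5.40 CPM in iPax7 and 0.426 ± 0.722 CPM in iPax3 (SD, n = 3 each), and it was the only one under 0.05. The SD exceeded the mean in iPax7 also for Cxcl1 (10.3 ± 15.1 CPM), Cxcl10 (0.347 ± 0.485 CPM) and Ccl2 (0.794 ± 0.919 CPM). With these spreads a difference between the lines was not detectable in most of the 10 genes rather than shown to be absent.

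Levels of different genes were compared per kilobase of exon. In Neo, Cxcl1 stood highest at 882 CPM per kilobase, followed by Cxcl2 at 198 and Ccl7 at 191, whose ranges over libraries overlapped. Ccl4 was at 57.0, Ccl3 at 24.7, Il6 at 24.3, Ccl2 at 17.4, Cxcl10 at 16.4 and Lif at 13.6 CPM per kilobase. Each of these overlapped the next in this order, while Ccl4 lay below Ccl7 without overlap. In PSC the order was different: Mif led at 99.1 (iPax3) and 166 (iPax7) CPM per kilobase. The next means were Ccl7 at 6.04 and Cxcl1 at 5.47 in iPax7, and Lif at 1.70 and Cxcl1 at 1.57 in iPax3. Their libraries overlapped within each group, so they are not ranked.

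Over the 15 libraries the genes fell into pairs by their log2 CPM. Ccl2 and Ccl7 had a Pearson r of 0.983, Ccl3 and Ccl4 of 0.976, and Cxcl2 and Il6 of 0.974. Lif was less like the other induced genes (r from 0.476 to 0.806), and Mif had a negative r with all 9 (from -0.953 to -0.587). These are descriptions over libraries that share their 5 groups and their depths, and most of each r is the step from the other groups to Neo.

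Outside the 10, the genes most like them over the same libraries were in part known early response genes. Closest to Cxcl1 was Rel (r = 0.959), which encodes an NF-kappaB subunit, and closest to Cxcl2 were Fabp4 (0.985), a lipid carrier of fat and endothelial cells, and Fos (0.966, after Ccnl1 at 0.972), an immediate early transcription factor. Rcan1, an inhibitor of calcineurin, was closest to Cxcl10 (0.958) and Ccl7 (0.902), and Nfkbia, the NF-kappaB inhibitor, was among the 3 closest to Cxcl10 (0.938), Ccl2 (0.901) and Ccl7 (0.892). The mitochondrial transcript mt-Co1 was closest to Ccl3 (0.961), Ccl4 (0.951) and Il6 (0.970), and the heat shock gene Hspa1a was second for Cxcl1 (0.947) and Il6 (0.964). Gbp3 was closest to Lif (0.968), and the nucleoporin gene Nup107 (0.964) and the histone chaperone gene Asf1b (0.956) were near Mif. Each list was drawn from about the same set of genes with a mean of at least 1 on the log2 CPM scale.

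Of 11 CXC chemokines tested, 5 were lower and 0 higher in PSC against tissue, and of 11 CC chemokines 6 were lower and 0 higher, where 11.7% of all tested genes were lower and 16.4% higher. Without the 7 chemokines described above, 3 of 8 CXC and 4 of 7 CC chemokines were lower. Cxcl12, which retains progenitors through CXCR4, was lower at 14.9 against 160 CPM (log2 -3.62 ± 0.35, adjusted p = 2.18e-06) and was also lower against Emb (log2 -3.54 ± 0.39, adjusted p = 1.4e-05). Pf4 and Cxcl14 were lower by log2 -5.63 ± 1.28 and -4.34 ± 1.51 (adjusted p = 0.00373 and 0.0411). Among CC chemokines, Ccl6 (log2 -6.37 ± 1.16, adjusted p = 0.000768) and the eosinophil attractant Ccl11 (log2 -4.26 ± 1.30, adjusted p = 0.0237) were lower, Ccl9 had 0 counts in PSC and 301 in tissue (adjusted p = 0.00201), and Ccl28 had 1 and 103 (adjusted p = 0.0267). Of 15 CXC and 20 CC chemokine genes, 11 of each family passed the filter on low counts. Cxcl2, Pf4, Ccl3, Ccl4, Ccl6, Ccl9 and Ccl28 had 0 to 4 counts over PSC and so passed it through the tissue libraries. Such genes could only come out lower, so the counts of lower chemokines followed in part from the filter.

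Of 11 chemokine and MIF receptor genes tested, 4 were lower and 1 higher in PSC against tissue, beside 11.7% and 16.4% of all tested genes. Those with the smallest adjusted p are carried by leukocytes or vessels. Cx3cr1 had 2 counts in PSC and 2074 in tissue, and Ccr2, the receptor of the Ccl2 and Ccl7 proteins, had 1 and 973 (adjusted p = 9.3e-05 and 0.000906). Ackr1, a chemokine scavenger of venules, had 0 and 203 counts (adjusted p = 0.00304), and Ccr1 had a log2 fold change of -5.45 ± 1.22 (adjusted p = 0.00422). The immune list moved with them, with 9 of 12 tested genes lower in PSC and 1 higher, and so did the endothelial list, with 10 of 12 lower and 1 higher. Cx3cr1, Ccr2, Ackr1 and, in the immune list, S100a9 had 0 to 2 counts in PSC. They passed the filter on low counts through the tissue libraries, so their lower calls followed in part from the filter.

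In the IL-6 family and its receptors, 5 of 15 genes were lower in PSC against tissue, beside 11.7% of all tested genes, and the shared receptor chains were present in every group. Il6st, the common signalling chain, was at a mean of 141 CPM in PSC and 288 CPM in tissue (log2 -1.04 ± 0.21, adjusted p = 0.00158). Il11ra1, the interleukin 11 receptor, was lower (14.9 against 64.0 CPM, log2 -2.20 ± 0.32, adjusted p = 0.000101), and so was Osm, the oncostatin M gene (log2 -5.39 ± 1.33, adjusted p = 0.00765). Of 11 other inflammatory cytokine genes, 2 were lower, Il15 (log2 -5.94 ± 1.32, adjusted p = 0.00328) and Il1b (log2 -5.96 ± 1.37, adjusted p = 0.00501), and 2 higher. The latter were Csf1, the macrophage growth factor, at 175 against 60.4 CPM (log2 2.48 ± 0.57, adjusted p = 0.00461), and Il18 (log2 4.72 ± 1.32, adjusted p = 0.0181). Of this list, 2 genes were called higher in PSC against Emb, but 0 against Fet and 0 against Neo. Csf1 and Il18 were thus not called higher against either later stage. Il1b had 4 counts in PSC and so passed the filter on low counts through the tissue libraries.

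Of 22 genes of the NF-kappaB pathway, 7 were higher and 2 lower in PSC against tissue, where 16.4% of all tested genes were higher and 11.7% lower. Against Emb 8 were higher and 0 lower (11.5% and 10.9% of all genes), and against Neo 1 was higher and 9 lower (13.7% and 14.9%). The difference between this list and the chemokines was not tested. Higher in PSC against tissue were Tnfaip2 (log2 3.32 ± 0.60, adjusted p = 0.000739), Tnip1, which restrains the pathway (log2 2.53 ± 0.53, adjusted p = 0.00212), and Sod2, the mitochondrial superoxide dismutase (log2 1.17 ± 0.21, adjusted p = 0.00079). Rel was lower (9.07 against 69.7 CPM, log2 -2.10 ± 0.31, adjusted p = 0.000114). The list summed to between 700 and 777 CPM in the PSC libraries, above Emb at 303 to 331 and Fet at 409 to 537, and to between 2114 and 2158 CPM in Neo. Within the tissue 14 of the 22 were higher in Neo than in Emb and 4 higher in Neo than in Fet, with none lower in either.

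**Figure D3:**
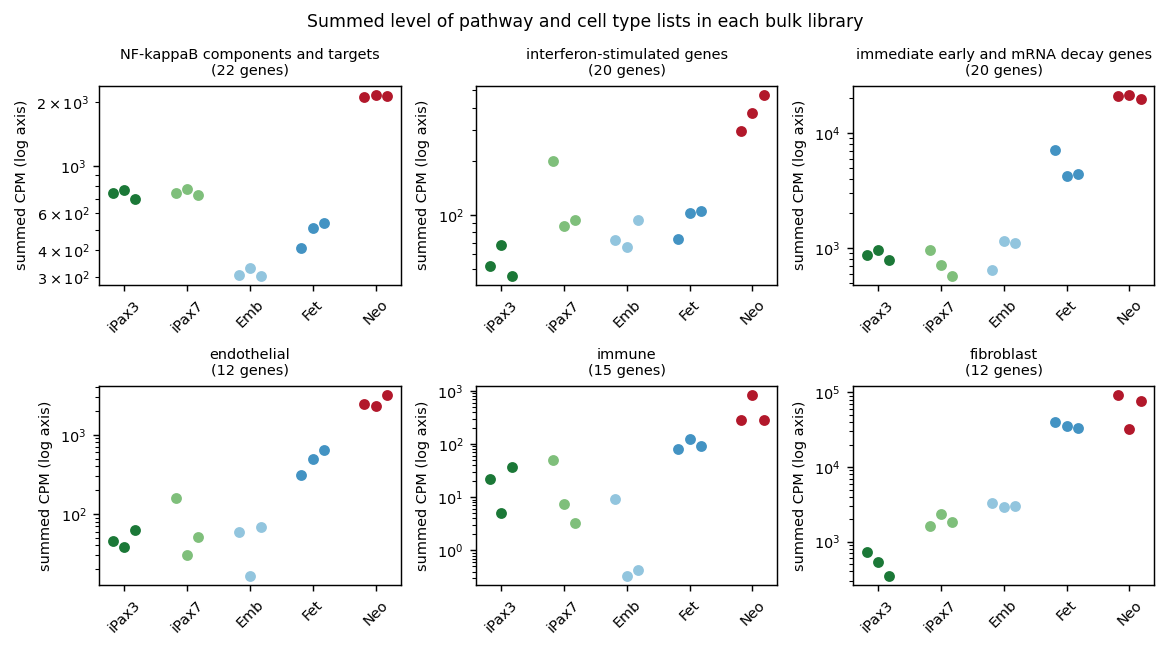
Summed CPM (log axes) of 3 pathway lists (top row) and 3 cell type lists (bottom row) in each of the 15 bulk libraries, with 1 point per library. The neonatal points are the highest in the pathway, endothelial and immune panels, and the PSC points lie above Emb and Fet in the NF-kappaB panel.

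Interferon-stimulated genes were 3 higher and 2 lower of 17 tested in PSC against tissue, shares close to the 16.4% and 11.7% of all tested genes, and 1 higher and 9 lower against Neo (13.7% and 14.9% of all genes). Gbp2, a guanylate-binding protein (log2 4.23 ± 1.10, adjusted p = 0.0104), the antiviral gene Mx1 (log2 4.16 ± 1.13, adjusted p = 0.0157) and Bst2 (log2 2.47 ± 0.81, adjusted p = 0.031) were higher, and Irf1 was lower (log2 -1.39 ± 0.46, adjusted p = 0.0315). The mean of Gbp2 was 8.38 CPM in PSC and 3.84 CPM in tissue, that of Mx1 0.496 and 0.143 CPM and that of Bst2 9.16 and 6.82 CPM. The log2 values rest on an average of logarithms, in which Emb has the same weight as Neo. Of the interferon-stimulated genes, 4 were called higher in PSC against Emb (11.5% of all genes) and 0 against Fet (3.3%). Of 20 immediate early and mRNA decay genes, 17 were lower and 0 higher in PSC against tissue (11.7% and 16.4% of all genes), all 20 were lower against Neo (14.9% of all genes), and 5 were lower and 5 higher against Emb (10.9% and 11.5%). Within the tissue 11 of them were higher in Fet than in Emb and 12 higher in Neo than in Fet, with 0 lower. Fos was at 14.3 CPM in PSC and 2192 CPM in tissue (log2 -6.01 ± 0.39, adjusted p = 2.81e-08), Fosb fell further (log2 -6.45 ± 0.37, adjusted p = 1.01e-08), and Egr1 and Zfp36, which encodes a protein that destabilises cytokine mRNA, were lower by log2 -4.08 ± 0.36 and -3.46 ± 0.25 (adjusted p = 7.4e-07 and 7.47e-08). This list summed to between 19650 and 21470 CPM in Neo, 4256 and 7053 in Fet and 640 and 1165 in Emb. It summed to between 785 and 957 CPM in iPax3 and 576 and 966 CPM in iPax7, so Emb overlapped PSC and lay below Fet. The tissue cells were freshly sorted and the PSC collected from culture, so sorting and origin cannot be told apart in PSC against tissue. The part of sorting was not tested.

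Single cells gave a further measure of the same genes in an adult and an iPax3 library, as UMI counts summed over cells and scaled to CPM like the bulk counts. After filtering, 579 adult cells (median 10760 UMIs) and 2931 iPax3 cells (median 11720 UMIs) remained, with 1 library per group, so differences between them carry no test and intervals cover counting error only. Another deposited matrix, labelled iPax3, held 577 of the 579 adult and all 2931 iPax3 cell barcodes and was counted as the same cells. The adult and iPax3 libraries shared 1 barcode with each other. Droplet libraries carry free RNA, so each level was set beside that in the barcodes with 1 to 100 UMIs of the same library, which hold mostly no cell.

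UMIs of the chemokines were far more frequent in the cell barcodes of the adult library than in those of the iPax3 library, a comparison of 2 libraries with their free RNA included. Cxcl1 was at 626 UMI CPM (exact Poisson interval 608 to 643) in the adult cells and at 0.601 (0.389 to 0.887) in the iPax3 cells, a ratio of 1042 (705 to 1611). Ccl4 was at 157.5 (148.8 to 166.5), Cxcl2 at 133 (125 to 141) and Ccl7 at 107 (99.9 to 114.5) UMI CPM in the adult cells. In the iPax3 cells Cxcl2 had 1 UMI, and Ccl7, Ccl3 and Ccl4 had 0 UMIs in 2931 cells, which allows a share of up to 0.102% of cells with a UMI. The adult level was at least 2185-fold above the floor that 3 UMIs give for Ccl4, at least 1485-fold for Ccl7 and at least 540.5-fold for Ccl3. Cxcl10 was at 75.9 and 0.144 UMI CPM (ratio 526, 240 to 1440), Ccl2 at 43.0 and 0.0480 (ratio 895, 246 to 7420) and Il6 at 9.11 and 0.0721 (ratio 126, 41.5 to 627). Lif was rare in both, with 8 UMIs (1.01 UMI CPM) in the adult and 19 UMIs (0.457 UMI CPM) in the iPax3 cells. Its ratio was 2.22 (0.839 to 5.30), an interval that holds 1. Mif was lower in the adult cells at 778 against 2135 UMI CPM (ratio 0.364, 0.355 to 0.374).

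The near-empty barcodes of the adult library held most of these genes at levels near those of its cells. Cxcl1 was at 495 UMI CPM (435 to 561) in those barcodes, Ccl4 at 167 (133 to 207), Ccl7 at 106 (79.1 to 139) and Mif at 737 (663 to 817). The ratio of cells to near-empty barcodes was 1.26 for Cxcl1, 1.52 for Cxcl2, 1.43 for Cxcl10, 0.943 for Ccl4, 1.01 for Ccl7, 1.13 for Ccl3, 0.754 for Ccl2 and 1.06 for Mif. It was 2.24 for Il6 and 0.249 for Lif, each against 2 UMIs in the near-empty barcodes. The counting intervals of cells and near-empty barcodes did not overlap for Cxcl1 (608 to 643 against 435 to 561) and Cxcl2 (125 to 141 against 63.4 to 118), and overlapped for the other 8 genes. Genes of other cell types lay in the same range, at 1.17 for Cd74 and 1.10 for both Lyz2 and Tyrobp. Of the muscle genes, Pax7 (0.818), Des (0.850) and Chodl (0.746) lay under 1, and Myod1 (1.415) and Myf5 (1.437) above it. A UMI of Cxcl1 was found in 96.4% of adult cells, of Ccl4 in 73.4%, of Cxcl2 in 61.1% and of Il6 in 8.46%, beside 100% for Cd74 and 84.6% for Tyrobp, both leukocyte genes. Since free RNA also gives UMIs at these levels, the shares are not read as shares of cells expressing a gene. Thinned to 3000 UMIs per cell, Cxcl1 was found in 77.4%, Ccl4 in 34.5%, Cxcl2 in 25.7% and Il6 in 2.76% of adult cells, and Cd74 in 99.3%. In the iPax3 library the near-empty barcodes held Cxcl1 at 5.545 and Cxcl2 at 2.31 UMI CPM. Cxcl10, Ccl2 and Ccl7 were each at 1.386 and Ccl4 at 0.924 UMI CPM there. These levels, from 2 to 12 UMIs each, were above those in the iPax3 cells. Lif was at 0.462 UMI CPM in these barcodes, Mif at 2319, and Ccl3 and Il6 had 0 UMIs.

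**Figure D4:**
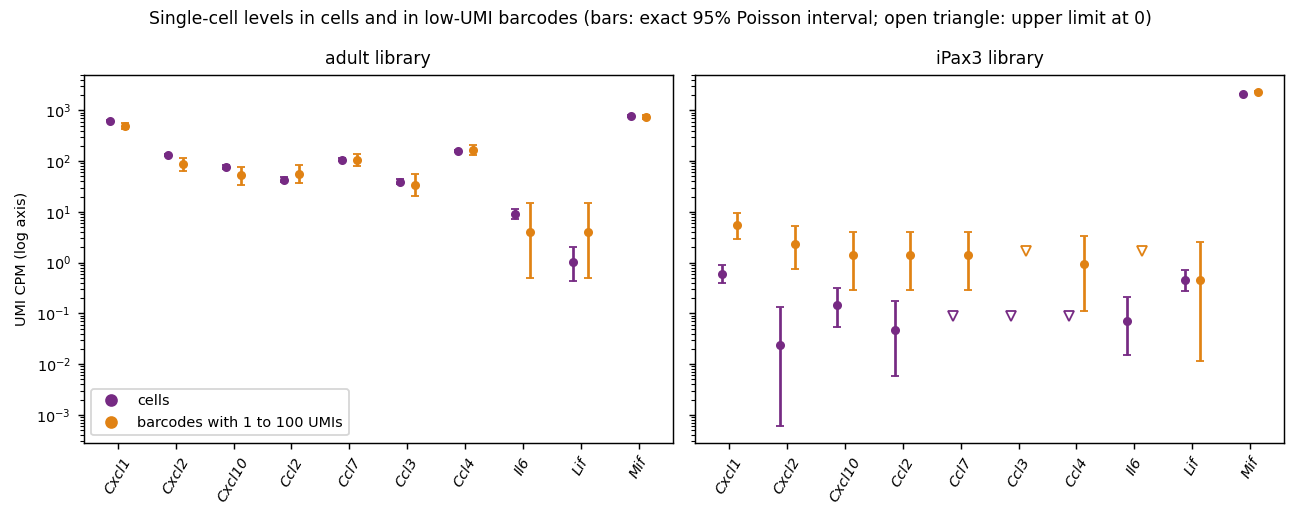
UMI CPM (log axis) of the 10 genes in cells (purple) and in barcodes with 1 to 100 UMIs (orange) of the adult and the iPax3 single-cell libraries, with exact 95% Poisson intervals and open triangles for upper limits at 0 UMIs. In the adult library the 2 colours lie close together for most genes, and in the iPax3 library only Mif reaches a level above 1 UMI CPM in cells.

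UMIs of some chemokines were concentrated in few adult cells. The 10 cells with the most UMIs of a gene held 32.9% of all Ccl2 UMIs, 29.8% of Cxcl2, 26.0% of Ccl3, 24.3% of Ccl4, 18% of Cxcl10, 14.1% of Ccl7 and 11.1% of Cxcl1. The share was 8.93% for Mif, 10.1% for Pax7 and 13.8% for Myod1, a range that holds Cxcl1. Relative to a Poisson spread at each cell's depth, the dispersion over cells was 16.2 for Ccl4, 8.62 for Cxcl1, 8.39 for Cxcl2, 6.09 for Ccl3, 5.38 for Ccl2, 2.86 for Cxcl10 and 2.69 for Ccl7, against 1.05 for Mif and 1.09 for Pax7. Genes outside the chemokines were as uneven, with 26.6 for Dcn, 23.6 for Cd74, 7.62 for Lyz2 and 5.57 for Myod1. One cell of 11594 UMIs had both the most Ccl4 (125 UMIs) and the most Ccl3 (37 UMIs), together with 28 UMIs of Cxcl2. It held 57 UMIs of Cd74, 11 of Lyz2, 5 of Tyrobp, 8 of Dcn, 3 of Des, 0 of Ptprc and 0 of Pax7. The cell with the most Cxcl1 held 28 UMIs of Cd74, 10 of Des and 5 of Pax7. That with the most Cxcl2 held 232 of Cd74, 8 of Des and 2 of Pax7. Free RNA adds to all of these, so the cells are not assigned to a type. Across the 579 cells the pairs with the highest Pearson r were Ccl3 with Ccl4 (0.181) and Ccl2 with Ccl7 (0.180), the same neighbours as in bulk, but values of this size in sparse counts describe little.

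**Figure D5:**
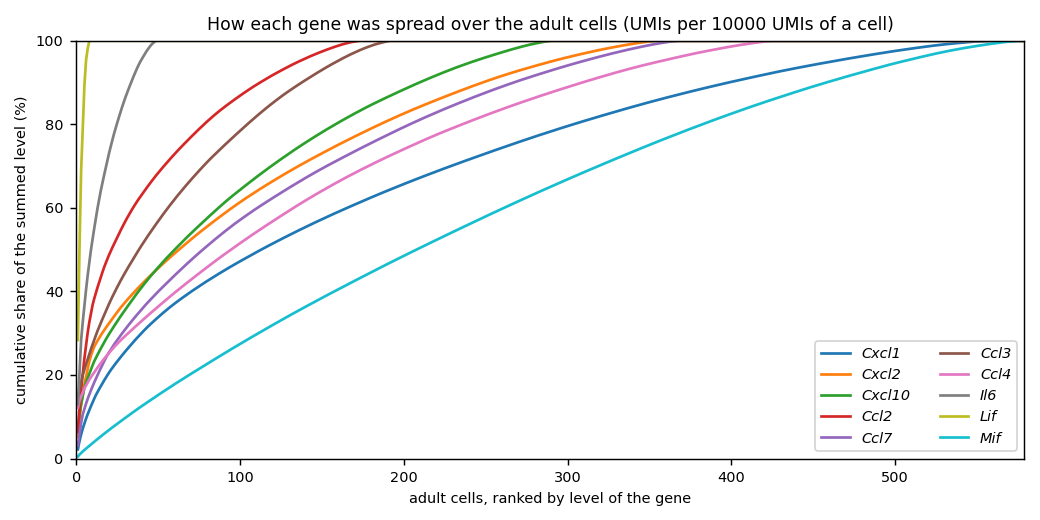
Cumulative share (%) of each gene's summed level, in UMIs per 10000 UMIs of a cell, over the 579 adult cells ranked by their level of that gene. The curve of Mif rises most evenly, those of Ccl2 and Ccl3 rise steeply over few cells, and those of Il6 and Lif end early because few cells held a UMI.

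The means of Il6 and Cxcl10 differed between the authors' clusters of the adult library. Il6 had 72 UMIs over the 579 adult cells, and 45.8% of them lay in 10 cells. In the authors' deposited table the mean of Il6 was 0.0780 UMIs per cell in adult cluster 1 and 0.392 in cluster 2. In the authors' deposited table Cxcl10 was at 0.776 and 1.53, Cxcl1 at 6.76 and 7.15, Ccl2 at 0.477 and 0.310 and Mif at 8.53 and 7.13 UMIs per cell in the same clusters. Among the 7 iPax3 clusters the authors' deposited table gave Mif means from 14.9 to 32.4 UMIs per cell, and Cxcl1 means from 0.00 to 0.0120. These are means over cells of 1 library each and carry no test between animals or cultures.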

How the data were processed

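The authors deposited read counts per gene for 15 bulk libraries and UMI counts per barcode for the single-cell libraries. Per the submitters' processing notes, bulk processing named CASAVA 1.8, HISAT2 2.0.2, Subread and featureCounts 1.4.6 with build mm10, and single-cell processing CASAVA 1.8 and Cell Ranger 2.2.0; the annotation release and the strand setting are not given in the sources used here. The authors' deposited cluster tables hold a score (each cluster's mean UMI count) and a log2 fold change between clusters; their p-values take cells as replicates and were not used.

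Of 47728 gene identifiers, 28692 were named from the single-cell gene table, 18884 from a gene name table and 152 had no name. Libraries held 516504 to 56275318 counts. edgeR 4.0.16 (R 4.3.3; filterByExpr, TMM, robust quasi-likelihood fit, 1 mean per group over all 15 libraries) tested 17571 genes in 8 comparisons, with Benjamini-Hochberg adjustment over all genes at 0.05; the code was tested on simulated data. A group at 0 was compared through a floor of 3 counts over the group, and 1 to 3 counts through an exact 95% interval of the ratio. CPM used library totals, and the likeness between genes used log2 CPM with a prior count of 2. Exon lengths came from GENCODE annotation of GRCm38.

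A barcode was kept as a cell if its UMI count reached 10% of the 99th percentile among the 3000 largest, was 500 or more, and held less than 10% mitochondrial UMIs; no doublet caller was run. Replicates differed beyond sampling noise (chi-square per degree of freedom 8.01 to 510). All 10 genes are named in every comparison, and from each other list up to 4 genes with the smallest adjusted p in PSC against tissue; for likeness, the 3 genes with the highest r. The members and lists were chosen with earlier results of these data known. DESeq2 1.42.0, another scaling, no filter, a replicate block, thinned counts and single libraries left out were alternatives. The result of 1 gene of the IL-6 family list is not reported here.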

Additional observations from a re-analysis of the deposited data

How the results depend on the processing

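Of the 41 calls among the 10 genes in the 8 comparisons, no alternative reversed a direction. All 41 were kept with RLE size factors, 40 without the filter on low counts, and all 35 that DESeq2 gave an adjusted p; over the 15 left-out libraries 585 of 615 were kept. Same-numbered libraries of different groups had a residual r from -0.331 to 0.0767. Libraries with different numbers were not compared, so whether the numbers mark a shared batch was not tested. With a replicate block 38 of 41 calls were kept. The count of genes called became 7 (from 13) in iPax7 against iPax3 and 263 (from 416) in Neo against Fet. In Fet against Emb it became 379 (from 641), with 1 of the 10 genes in place of 2. The calls of Lif were lost in PSC against tissue (log2 1.85, adjusted p = 0.0949), Fet against Emb (5.96, 0.0545) and Neo against Fet (5.17, 0.0536).

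DESeq2 called 251 genes in iPax7 against iPax3, 2174 in Fet against Emb (5 of the 10) and 1662 in Neo against Fet. Without the filter, 22 genes were called in iPax7 against iPax3, and 31 without iPax7 replicate 1 and Fet replicate 1, an alternative chosen after seeing the data, which kept 39 of 41 calls and lost Lif in PSC against tissue (log2 1.399, adjusted p = 0.143) and Mif in PSC against Fet (1.44, 0.111).

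With every library thinned to the depth of Fet replicate 1, 6 of 41 calls were kept, so depth limits these results. Genes called, and members among them, were then 216 and 1 in PSC against tissue, 72 and 0 against Emb, 96 and 0 against Fet, 281 and 3 against Neo, 3 genes in iPax7 against iPax3, 16 and 0 in Fet against Emb, 50 and 1 in Neo against Emb, and 7 and 1 in Neo against Fet.

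Leaving out 1 library gave these lowest and highest counts of genes called: 3829 and 6623 in PSC against tissue, 2793 and 6160 against Emb, 1031 and 2579 against Fet, 3751 and 5973 against Neo, 3 and 38 in iPax7 against iPax3, 242 and 3169 in Fet against Emb, 2757 and 4942 in Neo against Emb and 85 and 781 in Neo against Fet. Of the 10 genes, 5 to 7, 2 to 2, 4 to 6, 10 to 10, 0 to 0, 1 to 5, 10 to 10 and 2 to 6 were called in the same order.

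In the aggregated single-cell matrix the adult levels were 671.9 UMI CPM for Cxcl1, 49.5 for Ccl2 and 720.1 for Mif, and the iPax3 level of Mif was 1734. Without the 5% of cells with the most UMIs the iPax3 levels were 0 for Cxcl2, 0 for Ccl2 and 2099 for Mif. The cause of these changes was not tested.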
